A study of Mus musculus with 14 samples.

Results

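Obstructed kidneys of mice labelled SMOC2 transgenic were compared with obstructed kidneys of mice labelled wild type, gene by gene, over all expressed genes. The comparison used 8 of the 14 RNA libraries of the series, chosen by their labels alone: 4 SMOC2_UUO libraries and 4 WT_UUO libraries. All 8 came from mouse kidney 7 days after unilateral ureteral obstruction (UUO), in which the ureter of one kidney is closed. The other 6 libraries, 3 labelled SMOC2 transgenic and 3 wild type, came from kidneys with no treatment. They served as a separate measurement of the same label difference. The treatment protocol text of every sample instead describes an injection of folic acid into Balb/c males, whereas the genotype and treatment fields and the design text name the groups used here. Apart from that text no strain is given for these mice. The promoter of the transgene, the number of transgenic lines, the age of the mice and the hour of tissue collection are not stated in the sources used. No label ties a library to an animal of its own, and the p-values below therefore describe the spread among these libraries, part of which may be technical.

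Obstruction raises the pressure in the tubules, which lose their differentiated functions while immune cells enter the tissue and fibroblasts become contractile, matrix-depositing myofibroblasts. SMOC2 is a secreted calcium-binding protein of the extracellular matrix, related to SPARC. It is made by mesenchymal cells, and the title of the study links its silencing to protection from kidney fibrosis. The RNA was from whole kidney, so fewer cells of a type and less RNA per cell cannot be told apart in any value below. Levels are CPM, that is counts relative to the scaled library size, and differences are log2 of SMOC2-labelled over wild type. The words rose and fell are kept for genes with an edgeR adjusted p under 0.05.

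The obstructed libraries held 20667885 to 27670785 counts each. Xist and the other genes of the X inactivation and Y-linked list summed to 1303 to 1481 CPM in SMOC2-labelled and 1303 to 1513 CPM in wild-type obstructed libraries, with the Y-linked Ddx3y, Uty and Eif2s3y at 0 in all 8, which differs from the male mice of the protocol text. Of the 13 mitochondrially encoded genes of a list, 5 were at 0 in all 8 libraries, mt-Co2 and mt-Co3 among them, and they were not tested. Across the 8 libraries, a first principal component with 25.1% of the variance separated the labels, with all SMOC2-labelled libraries from -29.5 to -20.6 and all wild-type libraries from 19.95 to 32.3. The second component (18.6%) separated wild-type libraries 1 and 3 from wild-type libraries 2 and 4.

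Smoc2 (ENSMUSG00000023886, chromosome 17 from 14279506 to 14404790 on mm10) was not higher in the libraries labelled transgenic. Its level in the 4 SMOC2_UUO libraries, in the order of their numbers, was 124, 89.9, 83.9 and 87.1 CPM, and in the 4 WT_UUO libraries 150.4, 131, 158 and 148 CPM. Every SMOC2-labelled library was below every wild-type library. The difference did not pass the test (log2 -0.61, 95% interval -1.29 to 0.07, edgeR adjusted p = 0.389). Under 18 alternative settings it stayed between -0.76 and -0.55, with adjusted p from 0.0831 to 0.561. The construct is not described in the sources used here, so whether these counts include a transcript of the transgene is not known. All directions below are therefore between the labels, not between measured SMOC2 levels.

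In all, 149 of 17926 genes tested changed (0.831%), of which 100 were higher (0.558%) and 49 lower (0.273%) in the SMOC2-labelled libraries. Of these, 49 changed at least 2-fold and 72 changed less than 1.5-fold. The 4 and 4 libraries did not overlap for 146 of the 149 changed genes, against 1765 of all genes tested (9.85%). The calls came from these same libraries, so this separation was largely set by the selection. The rises included 84 protein-coding genes and 7 immunoglobulin segments, and the falls 40 protein-coding genes. The number of changed genes rested on single libraries: leaving out 1 library gave 29 (without SMOC2-labelled library 2) to 158 changed genes (without SMOC2-labelled library 4). It was 45, 71, 64, 70 and 63 without SMOC2-labelled libraries 3 and 1 and wild-type libraries 1, 3 and 4. Fitted to the 8 obstructed libraries alone, with no untreated kidney to share the estimate of the spread, the test called 39 genes. Of the 44 called genes named here, 19 kept their call in that fit and 25 did not. DESeq2 called all 44, and also 26 of the named genes that the main test did not call.

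**Figure D1:**
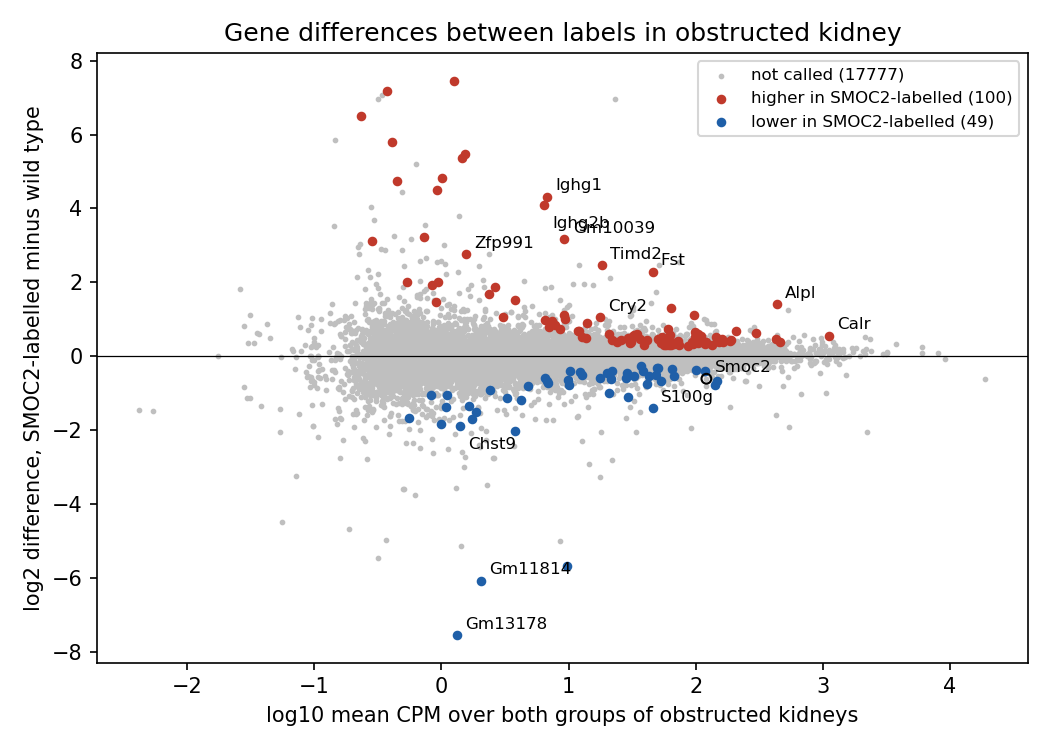
Each point is 1 of 17926 genes in obstructed kidney, with the log10 mean CPM of the groups on the horizontal axis and the log2 difference of SMOC2-labelled minus wild type on the vertical axis. The 100 higher genes are red and the 49 lower genes blue. Smoc2, circled, lies below 0 and is not called, while most called genes at high levels have small differences.

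Among genes with an established symbol and a mean above 10 CPM in the higher group, outside the immunoglobulin genes, the largest rises were those of Timd2 and Fst, 5.50-fold and 4.89-fold. Fst (ENSMUSG00000021765, chromosome 13 from 114452290 to 114458951) encodes follistatin, a secreted antagonist of activins. It was at 75, 69.1, 59.9 and 100.4 CPM in the SMOC2-labelled libraries and at 9.52, 27.4, 10.6 and 14.6 CPM in the wild-type libraries. The lowest SMOC2-labelled library was above the highest wild-type library, and the mean was 4.89-fold higher (log2 2.29, 95% interval 1.66 to 2.92, edgeR adjusted p = 0.00332). In untreated kidney it was at 19.2, 15.6 and 25.5 CPM in SMOC2-labelled and 18.5, 16.7 and 21.5 CPM in wild-type libraries, with a difference of 0.09 (edgeR adjusted p = 0.938). The change of the label difference with obstruction did not pass the main test for Fst (edgeR adjusted p = 0.483), but it passed with DESeq2 (adjusted p = 0.00435) and in edgeR without wild-type library 2 (adjusted p = 0.0191).

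Timd2 (chromosome 11 from 46668960 to 46707061), a cell-surface receptor of the TIM family that binds ferritin in mice, was at 35.4, 36.3, 23.9 and 28.5 CPM in SMOC2-labelled and 4.92, 7.34, 2.9 and 7.39 CPM in wild-type obstructed kidney (log2 2.46, 95% interval 1.80 to 3.12, edgeR adjusted p = 0.00332). All 4 SMOC2-labelled libraries stood well above the others. In untreated kidney its levels were 10.5, 14.4 and 8.28 CPM against 6.44, 5.48 and 2.69 CPM, also without overlap, with a difference of 1.19 that did not pass (edgeR adjusted p = 0.267). The next TIM family gene along chromosome 11, Havcr1 (from 46735080 to 46779578), encodes kidney injury molecule 1, and its values were looked at after they had been seen. It was at 868, 798, 525 and 833 CPM in SMOC2-labelled and 369.6, 359.8, 251 and 287 CPM in wild-type obstructed kidney. The groups did not overlap, yet Havcr1 did not pass (log2 1.25, 95% interval -0.23 to 2.74, edgeR adjusted p = 0.42). In untreated kidney Havcr1 was at 308, 339.8 and 264 CPM in SMOC2-labelled libraries and spread over 145, 11.6 and 4.13 CPM in wild-type libraries, and with the 8 obstructed libraries alone its adjusted p was 0.0326.

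Alpl, the tissue-nonspecific alkaline phosphatase of the proximal tubule brush border (chromosome 4 from 137741733 to 137796384), was at 436, 598, 832 and 661 CPM against 250.1, 236, 176 and 283 CPM. It was 2.67-fold higher (log2 1.42, 95% interval 0.98 to 1.86, edgeR adjusted p = 0.00948). Prodh2, a mitochondrial enzyme of hydroxyproline breakdown, was at 52.5, 69.97, 141 and 103 CPM against 45.9, 32.3, 29.6 and 39.5 CPM (log2 1.31, 95% interval 0.77 to 1.86, edgeR adjusted p = 0.0316). Both are tubule genes that obstruction lowered in wild-type kidney, by 1.32 for Alpl and 1.82 for Prodh2 on the log2 scale. The list of 35 proximal tubule genes held no called gene, with 22 members above 0 and a median of 0.13. Its summed level spread more among wild-type libraries (6276 to 13161 CPM) than among SMOC2-labelled libraries (8788 to 11762 CPM). Prodh2 lost its call in 6 of 8 (highest adjusted p = 0.0933, without wild-type library 3) refits that left out 1 library, and Alpl in 0 of 8.

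Tspan4, a membrane tetraspanin, Vcp, the ATPase that draws ubiquitinated proteins out of membranes, and Tnip1, an inhibitor of NF-kappaB signalling, were chosen after their values were seen, for their small spread. Tspan4 was at 79.99, 77.2, 71.2 and 77.9 CPM against 42.5, 51.6, 42.5 and 46.2 CPM (log2 0.74, 95% interval 0.56 to 0.93, edgeR adjusted p = 0.00277). Vcp was at 124, 128, 147 and 127 CPM against 90.00, 88.4, 87 and 91.8 CPM, a difference of 0.56 (edgeR adjusted p = 0.00724). Tnip1 differed by 0.53 (edgeR adjusted p = 0.00916). All 3 genes held their call in each of the 8 refits that left out 1 library. In untreated kidney the difference of Tspan4 was 0.31 and did not pass (edgeR adjusted p = 0.291).

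Other rises of the leading 15 were at lower levels. Zfp991, a zinc finger gene of a family with near-identical copies on chromosome 4, whose counts are therefore uncertain, was at 2.71, 2.54, 2.58 and 3 CPM against 0.467, 0.438, 0.283 and 0.385 CPM (log2 2.77, 95% interval 2.18 to 3.36, edgeR adjusted p = 0.000573). Its difference in untreated kidney was 2.29 (edgeR adjusted p = 0.0921). Disp2, of the dispatched family of membrane proteins, rose by 2.02, Fam163a by 1.52 and the antisense transcript H3f3aos by 1.47 (edgeR adjusted p = 0.015, 0.0265 and 0.0466). H3f3aos overlaps a gene on the opposite strand, and since the strand setting of the counting is not given here its reads cannot be assigned with certainty. Fam163a lost its call in 5 of 8 (highest adjusted p = 0.077, without wild-type library 3) refits, H3f3aos lost its call in 7 of 8 (highest adjusted p = 0.14, without SMOC2-labelled library 2), and Disp2 and Zfp991 in 0 of 8.

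**Figure D2:**
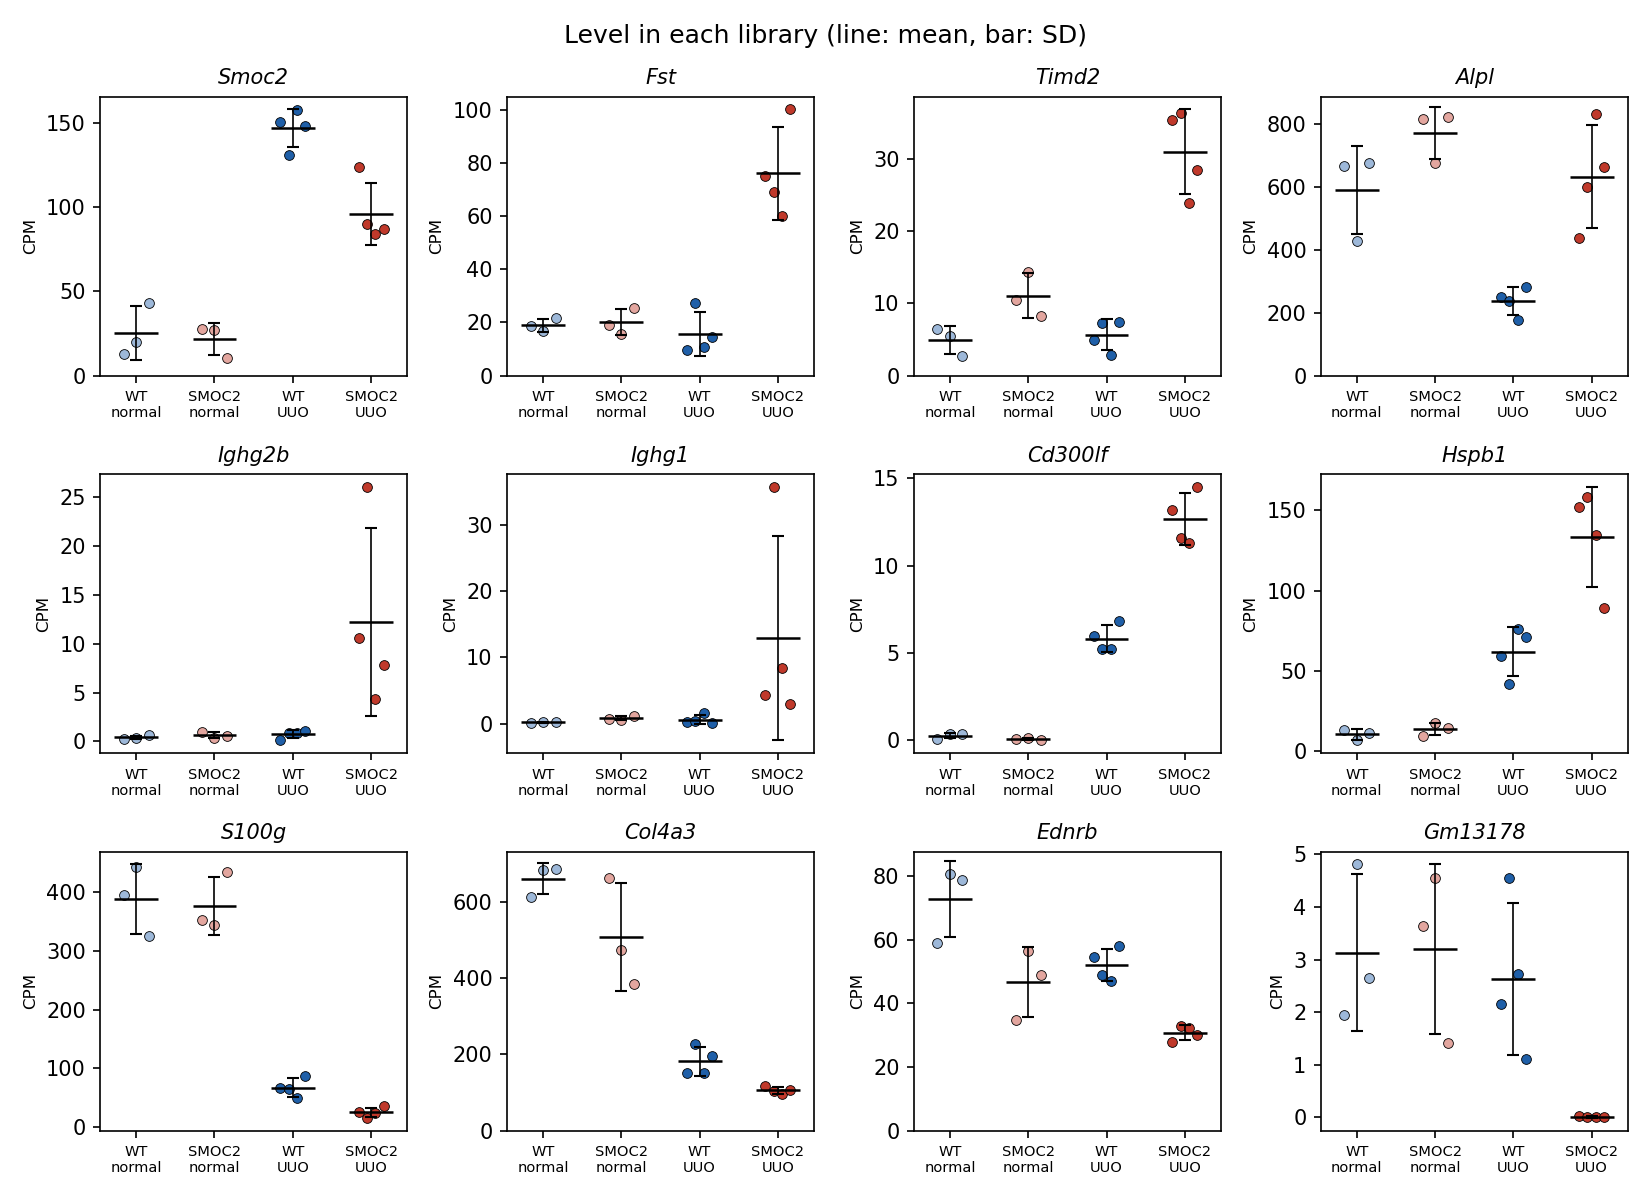
Each panel gives the CPM of 1 gene in all 14 libraries, with 3 wild-type and 3 SMOC2-labelled untreated kidneys and 4 wild-type and 4 SMOC2-labelled obstructed kidneys, the mean as a line and the SD as a bar. The obstructed groups do not overlap in any of the 12 panels, and Smoc2 is the one gene shown that was not called.

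The falls are led here by S100g and Chst9. S100g, calbindin-D9k, a calcium buffer of the distal nephron (chromosome X from 162961992 to 162964599), was at 25.7, 15.7, 24.5 and 35.1 CPM in SMOC2-labelled and 66.4, 65.5, 48.7 and 87.5 CPM in wild-type obstructed kidney. The wild-type mean was 2.65-fold higher (log2 -1.41, 95% interval -1.88 to -0.94, edgeR adjusted p = 0.0147). In untreated kidney S100g was at 352, 344 and 434 CPM and 395, 444 and 325 CPM, a difference of -0.04 (edgeR adjusted p = 0.959). Obstruction alone lowered S100g in wild-type kidney by 2.53 on the log2 scale. Chst9, a sulfotransferase that modifies N-acetylgalactosamine, was at 0.903, 0.753, 0.354 and 0.325 CPM against 1.87, 2.93, 1.87 and 2.09 CPM (log2 -1.89, 95% interval -2.53 to -1.25, edgeR adjusted p = 0.015). S100g and Chst9 held their call in all 8 refits that left out 1 library, and both lost it in the fit to the 8 obstructed libraries alone (edgeR adjusted p = 0.0559 and 0.065).

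Ednrb, the endothelin B receptor, was at 27.8, 33, 32.2 and 29.95 CPM against 54.6, 48.8, 47.1 and 58 CPM (log2 -0.76, 95% interval -1.06 to -0.46, edgeR adjusted p = 0.0264). In untreated kidney it differed by -0.64 in the same direction without passing (edgeR adjusted p = 0.201). Col4a3, which encodes the alpha 3 chain of type IV collagen in the mature glomerular and tubular basement membrane, was at 117, 104, 95.1 and 106 CPM against 151, 228, 149.97 and 196 CPM (log2 -0.78, 95% interval -1.14 to -0.43, edgeR adjusted p = 0.0455). Col4a4, which encodes its partner chain and lies beside it on chromosome 1 in the opposite orientation, was at 171, 157, 153 and 152 CPM against 186, 249, 197 and 220.4 CPM. The groups did not overlap, but Col4a4 did not pass (log2 -0.43, 95% interval -0.64 to -0.22, edgeR adjusted p = 0.0607), while it did with DESeq2 (adjusted p = 0.00311) and limma-voom (adjusted p = 0.0436). Podocytes make these chains in the glomerulus, and the list of 15 podocyte genes summed to 1269 to 1495 CPM in SMOC2-labelled and 1536 to 1673 CPM in wild-type obstructed libraries, without overlap. Of the 15 podocyte genes, 11 were below 0, none was called and the median was -0.10, and their part in the Col4a3 difference was not tested. Of 20 basement membrane genes, Col4a3 was the one called, and the list median was -0.0031 with 10 members on each side of 0. Ednrb lost its call in 5 of 8 (highest adjusted p = 0.0688, without wild-type library 4) refits and Col4a3 lost its call in 8 of 8 (highest adjusted p = 0.134, without SMOC2-labelled library 2).

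A further 10 of the leading falls follow. Kcnb2, a voltage-gated potassium channel, was at 0.654, 0.832, 0.884 and 0.893 CPM against 4.13, 1.51, 3.29 and 1.75 CPM (log2 -1.71, 95% interval -2.42 to -1.0, edgeR adjusted p = 0.0325). Mcoln3, a cation channel of endosomes and lysosomes, was at 15.7, 15.6, 12.3 and 11.9 CPM against 20.5, 29.6, 20.7 and 40.3 CPM (log2 -1.0, 95% interval -1.43 to -0.58, edgeR adjusted p = 0.0351). Reln, the secreted glycoprotein reelin, Ppef2, a calcium-binding phosphatase, and Cacng7, a subunit of the calcium channel gamma family, fell by 1.36, 1.39 and 1.19 on the log2 scale (edgeR adjusted p = 0.03, 0.0285 and 0.0306). St6galnac3, a sialyltransferase, Zfp758, Noxred1 and the antisense transcript Panct2, uncertain for the same reason as H3f3aos, fell by 0.81, 0.79, 1.04 and 1.14 (edgeR adjusted p = 0.0316, 0.0398, 0.0462 and 0.0421). Cabcoco1, which encodes a coiled-coil protein, was at 4.42, 4.28, 5.76 and 6.45 CPM against 8.12, 10.2, 8.56 and 7.39 CPM (log2 -0.72, edgeR adjusted p = 0.0351). Each of these 10 genes lost its call in 5 to 8 of the 8 refits that left out 1 library, with adjusted p up to 0.125 (Zfp758 without SMOC2-labelled library 2). Dnajb4, a cytosolic co-chaperone, Fras1, a matrix protein under epithelia, and Adh1, an alcohol dehydrogenase, were chosen after their values were seen. They fell by 0.68, 0.51 and 0.67 (edgeR adjusted p = 0.00948, 0.0147 and 0.0254). Dnajb4 and Fras1 held their call in all 8 refits, and Adh1 lost its call in 5 of 8 (highest adjusted p = 0.0765, without SMOC2-labelled library 2).

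Immunoglobulin transcripts, made by B cells and above all by antibody-secreting plasma cells, rose in the SMOC2-labelled obstructed kidneys for 7 of 32 segments tested, against 0.558% of all genes. Ighg2b, the constant region of IgG2b, was at 10.6, 26.1, 4.35 and 7.83 CPM against 0.108, 0.875, 0.813 and 1.07 CPM (log2 4.09, 95% interval 2.80 to 5.39, edgeR adjusted p = 0.0112). Ighg1 was at 4.42, 35.7, 8.45 and 3.04 CPM against 0.323, 0.404, 1.66 and 0.128 CPM (log2 4.32, 95% interval 2.57 to 6.07, edgeR adjusted p = 0.03). For both genes all 4 SMOC2-labelled libraries were above all wild-type libraries, and SMOC2-labelled library 2 was by far the highest. Iglc2, a lambda light-chain constant region, was at 0.996, 1.39, 1.59 and 1.42 CPM against 0.323, 0.337, 0.389 and 0.342 CPM (log2 1.94, 95% interval 1.22 to 2.65, edgeR adjusted p = 0.0219). The kappa variable segments Igkv1-117 and Igkv1-110 rose by 4.84 and 4.49 (edgeR adjusted p = 0.03 and 0.03), from 7 and 8 counts over the 4 wild-type libraries to 208 and 186.

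Of the 32 immunoglobulin segments, 31 were above 0, none fell and the median difference was 2.72. The filter on low counts used all 4 groups, so a segment near 0 in wild type could enter only through SMOC2-labelled libraries. For such segments a difference above 0 was fixed by the filter. The share of rises, the number above 0 and the median of these segments are therefore no separate support. Segments share near-identical sequence, so the count of any one of them is uncertain. The B cell and plasma cell list gave 3 rises among 19 genes tested and a median of 0.82, against -0.0077 over all genes. Of its 19 genes, 9 had every SMOC2-labelled library above every wild-type library, against 5.42% of all genes. Jchain, which joins secreted immunoglobulin multimers, and Igkc, the kappa constant region, are named after their values were seen. Jchain was at 8.22, 33.6, 17.4 and 23 CPM against 1.54, 1.92, 5.55 and 5.77 CPM (edgeR adjusted p = 0.145), and Igkc at 48.3, 213, 114 and 126 CPM against 11, 10.7, 32.6 and 32.1 CPM (edgeR adjusted p = 0.165). The B cell surface genes Cd79a and Ms4a1, also named after, differed by 0.82 and 0.63 and did not pass (edgeR adjusted p = 0.27 and 0.494).

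The immunoglobulin values rested in part on SMOC2-labelled library 2. Without it Ighg2b was at 3.41 (log2, adjusted p still under 0.05), Ighg1 at 3.05 and Igkv1-110 at 3.85, and the last 2 lost their call. Without wild-type library 3, Ighg1 was at 5.44 and Igkv1-117 at 6.81. Ighg1 lost its call in 5 of 8 (highest adjusted p = 0.077, without wild-type library 1) refits, Igkv1-117 lost its call in 5 of 8 (highest adjusted p = 0.0765, without SMOC2-labelled library 2), Igkv1-110 lost its call in 6 of 8 (highest adjusted p = 0.0831, without wild-type library 3) and Iglc2 lost its call in 4 of 8 (highest adjusted p = 0.0621, without SMOC2-labelled library 2), and Ighg2b in 0 of 8. With the 8 obstructed libraries alone Ighg2b, Ighg1 and Igkv1-117 lost their call (edgeR adjusted p = 0.0502, 0.0918 and 0.0559). In untreated kidney the differences were 0.59 for Ighg2b and 1.70 for Ighg1, and neither passed (edgeR adjusted p = 0.816 and 0.57).

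Among myeloid genes, Cd300lf, an inhibitory receptor of myeloid cells, was at 13.2, 11.6, 11.3 and 14.5 CPM against 5.96, 5.22, 5.23 and 6.84 CPM (log2 1.12, 95% interval 0.65 to 1.60, edgeR adjusted p = 0.0348). It was the 1 gene called of 29 macrophage and monocyte genes, whose median was 0.0073 and whose summed level overlapped between labels (2196 to 3251 CPM against 2709.7 to 3052 CPM). Gpnmb and Retnla, markers of different macrophage states, lay in opposite directions without passing in the main test. Gpnmb was at 6.44, 23.5, 10.5 and 5.56 CPM against 4.92, 3.06, 2.4 and 2.01 CPM (log2 1.88, edgeR adjusted p = 0.0602). With 1 library left out its difference ran from 1.27 to 2.20, and it passed in 3 of 18 alternatives. Retnla was at 6.44, 5.47, 1.13 and 4.06 CPM against 12.9, 24.4, 19.7 and 28 CPM (log2 -2.31, edgeR adjusted p = 0.0556). With no filter on low counts both passed in edgeR (adjusted p = 0.0375 and 0.0263). All 8 neutrophil genes tested were above 0 and none was called. S100a8, Ltf at 2.67 and Mmp8 at 1.81 were higher without overlap, 3 of 8 against 5.42% of all genes. Without SMOC2-labelled library 3 Ltf was at 1.61, and without SMOC2-labelled library 2 Mmp8 was at 0.93. With DESeq2 Ltf and Mmp8 passed (adjusted p = 0.00524 and 0.0408). Ltf rested on few counts, 10, 27, 94 and 13 in SMOC2-labelled and 5, 4, 8 and 5 in wild-type obstructed libraries. The neutrophil list summed to 45.6 to 52.7 CPM in SMOC2-labelled and 31.1 to 34.2 CPM in wild-type libraries, while Elane, Mpo, Ngp and Camp were too low to test. In untreated kidney the list summed to more than in any obstructed library, 112 to 671 CPM in SMOC2-labelled and 58.3 to 403 CPM in wild-type libraries. How far the sum follows neutrophils was not tested. Cd300lf lost its call in 8 of 8 (highest adjusted p = 0.0948, without wild-type library 3) refits.

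Genes of protein folding in the endoplasmic reticulum were mostly higher in the SMOC2-labelled libraries, with a single one passing. Calr, the calcium-binding chaperone calreticulin (chromosome 8 from 84841850 to 84846934), was at 1277, 1341, 1278 and 1399 CPM against 902, 929, 799.6 and 976 CPM (log2 0.55, 95% interval 0.31 to 0.80, edgeR adjusted p = 0.038). Of 21 genes of the list, 18 were above 0 and 7 had all SMOC2-labelled libraries above all wild-type libraries, against 5.42% of all genes, and the median was 0.31. The endoplasmic HSP90 gene Hsp90b1 was at 732, 745, 563 and 720.2 CPM against 469, 498, 421 and 543 CPM (log2 0.52, edgeR adjusted p = 0.0607). The disulfide isomerase gene Pdia6 was at 316, 313, 258 and 286 CPM against 215, 222, 209 and 243 CPM (log2 0.40, edgeR adjusted p = 0.0825). Pdia4 and Sdf2l1, named after their values were seen, were at 0.31 and 0.69 (edgeR adjusted p = 0.0867 and 0.0877). With DESeq2 all 4 passed, with adjusted p from 0.00189 for Hsp90b1 to 0.0115 for Sdf2l1. The list also holds genes induced through ATF4, Ddit3 among them. Of the 21 genes 3 were below 0. Ddit3, named after its values were seen, was the 1 gene with all SMOC2-labelled libraries below all wild-type libraries, against 4.43% of all genes. Calr lost its call in 8 of 8 (highest adjusted p = 0.116, without SMOC2-labelled library 2) refits.

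Folding genes are known for a shared promoter element, the endoplasmic reticulum stress response element, which reads CCAAT, then any 9 bases, then CCACG. It was searched on both strands in the 250 bases before the start of each gene in the RefSeq promoter table (GRCm38.p6), after the gene values had been seen. It was found in 35 of 27025 promoters (0.13%) and in 19 of the 12669 that belong to tested genes (0.15%). Of the 20 list genes with a promoter in the table, 7 held it (Calr, Canx, Creld2, Dnajc3, Hsp90b1, Hspa5 and Pdia6). Calr was the only one of 66 higher genes with a promoter to hold it, and it was in 0 of 29 lower genes. The 19 tested genes with the element all had differences above 0, where the median of all genes tested was -0.0077. Of the 19, Calr alone was called, and a shared cause was not tested. The promoters of the 3 list genes with the smallest p are shown because all 3 lay above 0. They are given 5′ to 3′ on the strand of the gene, with the matched element in capitals. A match describes the letters and does not show binding.
Calr (GRCm38.p6, chr8:84846932-84847181, minus strand): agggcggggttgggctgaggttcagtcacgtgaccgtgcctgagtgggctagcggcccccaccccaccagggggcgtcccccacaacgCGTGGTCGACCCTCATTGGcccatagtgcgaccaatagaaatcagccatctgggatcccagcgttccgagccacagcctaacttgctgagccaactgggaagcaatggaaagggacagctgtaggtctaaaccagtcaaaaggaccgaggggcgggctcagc
Hsp90b1 (GRCm38.p6, chr10:86705445-86705694, minus strand): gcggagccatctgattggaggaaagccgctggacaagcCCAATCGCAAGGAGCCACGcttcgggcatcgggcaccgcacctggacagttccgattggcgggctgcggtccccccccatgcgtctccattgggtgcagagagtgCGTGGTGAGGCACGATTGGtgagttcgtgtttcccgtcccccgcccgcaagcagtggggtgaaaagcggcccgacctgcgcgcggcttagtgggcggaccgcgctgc
Pdia6 (GRCm38.p6, chr12:17266339-17266588, plus strand): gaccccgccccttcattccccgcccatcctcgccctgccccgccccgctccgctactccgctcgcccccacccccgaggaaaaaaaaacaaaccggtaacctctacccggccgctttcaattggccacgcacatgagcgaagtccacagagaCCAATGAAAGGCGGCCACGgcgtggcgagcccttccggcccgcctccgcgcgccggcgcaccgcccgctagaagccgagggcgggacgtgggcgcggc

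The heat-shock list, mostly cytosolic but with some chaperones of mitochondria and the endoplasmic reticulum, did not share that direction by its median. Hspb1, a small heat-shock protein that binds actin and unfolded proteins, was at 152, 158, 135 and 89 CPM against 59, 41.5, 75.9 and 71.3 CPM (log2 1.11, 95% interval 0.59 to 1.62, edgeR adjusted p = 0.0492). The 15 genes of the list had a median of 0.02, with 3 genes higher and 2 lower without overlap, against 5.42% and 4.43% of all genes. The co-chaperone gene Dnajb1 was at -0.47 without passing (edgeR adjusted p = 0.147). Hspb1 lost its call in 7 of 8 (highest adjusted p = 0.148, without SMOC2-labelled library 2) refits.

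Genes of the circadian clock, a loop in which CLOCK and BMAL1 drive their own repressors over the day, differed in 2 directions. Cry2, a repressor, was at 20.9, 21.5, 26 and 27.2 CPM against 10.7, 13, 11.6 and 10.7 CPM (log2 1.05, 95% interval 0.67 to 1.43, edgeR adjusted p = 0.0188). It was the 1 gene called of 19. Dbp, an output transcription factor, was at 21.4, 18.7, 33.3 and 24.5 CPM against 2.77, 7.3, 5.62 and 10.2 CPM without overlap (log2 1.93, edgeR adjusted p = 0.0722).

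A further 6 clock genes are named after their values were seen, and none of them passed by edgeR. The repressor genes Per2 and Per3 were at 0.95 and 1.10, the nuclear receptor Nr1d1 at 0.84 and the output factor Tef at 0.82 (edgeR adjusted p = 0.0846, 0.087, 0.0952 and 0.107). Arntl, which encodes BMAL1, was at 14.8, 12.4, 9.23 and 8.2 CPM against 25.7, 19.4, 20.9 and 16.1 CPM (log2 -0.88, edgeR adjusted p = 0.0875), and Clock was at -0.32 (edgeR adjusted p = 0.0867). With DESeq2 these 6 genes and Dbp passed, with adjusted p from 0.00643 for Per3 to 0.0263 for Clock. In all, 8 of the 19 clock genes were higher and 2 lower without overlap, against 5.42% and 4.43% of all genes, and the list median was 0.48. In untreated kidney the list median was 0.33, Dbp differed by 1.18 and Arntl by -1.04, and neither passed (edgeR adjusted p = 0.362 and 0.219). Noct, a clock-controlled phosphatase, fell, at 25.5, 13.1, 17.6 and 17.7 CPM against 33.6, 27.6, 36.7 and 63 CPM (log2 -1.12, 95% interval -1.63 to -0.61, edgeR adjusted p = 0.0466). Cry2 lost its call in 3 of 8 (highest adjusted p = 0.0532, without SMOC2-labelled library 3) refits and Noct lost its call in 6 of 8 (highest adjusted p = 0.143, without SMOC2-labelled library 2). With no collection hour in the sources used here, time of day and label cannot be told apart.

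**Figure D3:**
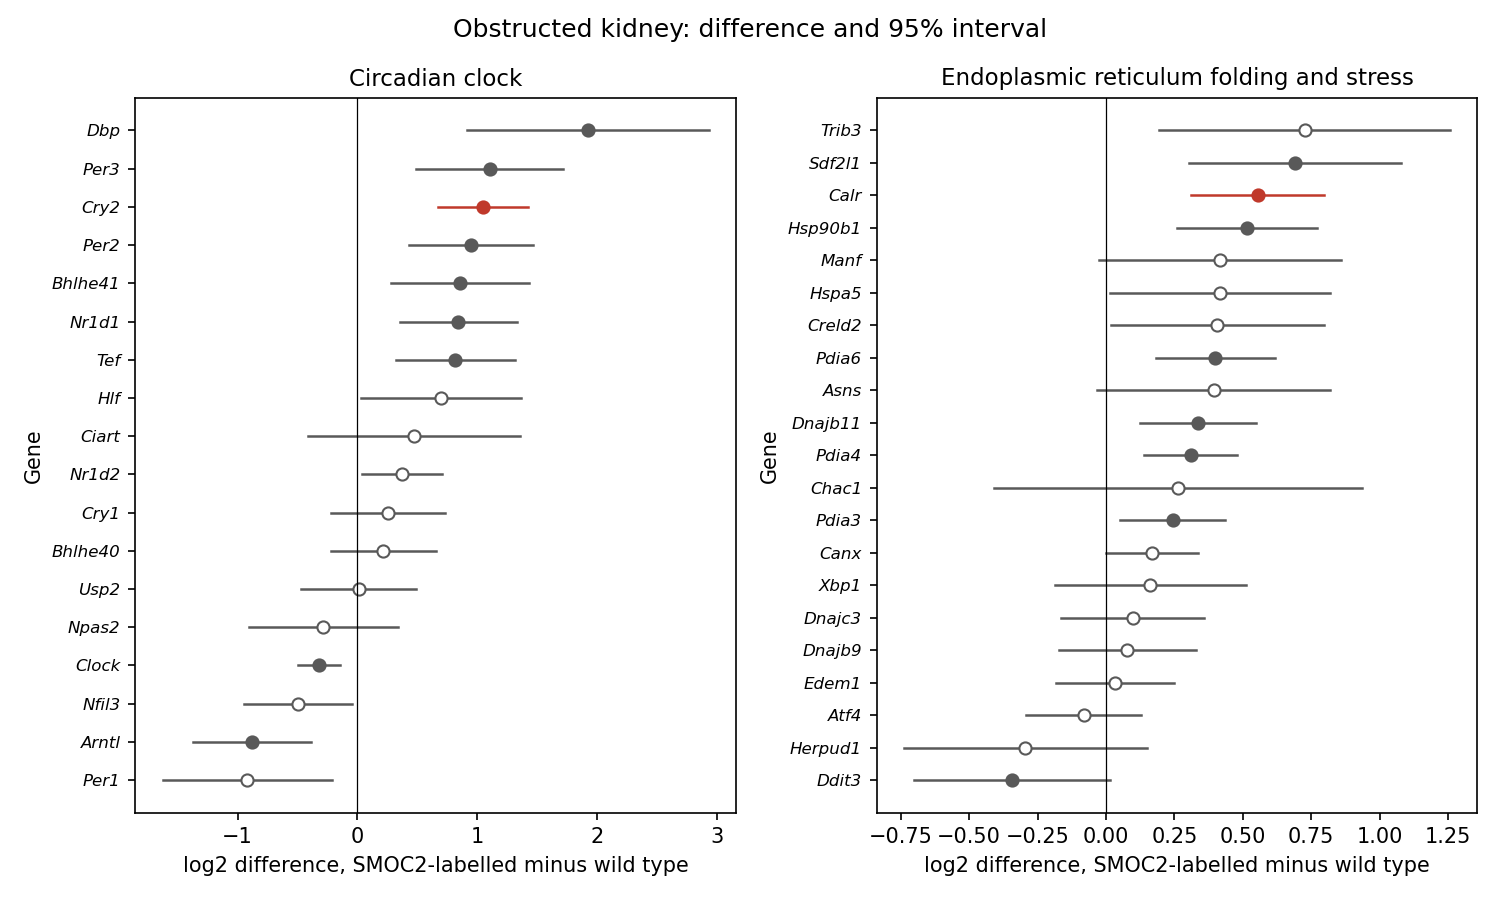
Each row is 1 gene, with its log2 difference of SMOC2-labelled minus wild type in obstructed kidney and the 95% interval, for 18 of the 19 clock genes and 21 endoplasmic reticulum genes. Filled points are genes whose 4 and 4 libraries do not overlap and red marks the called genes, Cry2 and Calr. Arntl and Clock lie below 0 while Dbp, Per2, Per3 and Nr1d1 lie above it.

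Fibrosis genes, the subject named in the title of the study, showed no call between labels. Of 18 fibrillar and other matrix collagens none was called and none separated the groups, with 14 above 0 and a median of 0.19. Col1a1, the main chain of type I collagen, was at 1139, 1325, 1280.5 and 819.8 CPM against 1036, 654, 1085 and 442 CPM (log2 0.50, 95% interval -0.21 to 1.22, edgeR adjusted p = 0.511). Col3a1, Fn1 and Acta2 were looked up as standard fibrosis and myofibroblast genes after the values had been seen. Col3a1 was at 0.18 (-0.50 to 0.87), fibronectin Fn1 at 0.20 (-0.23 to 0.62) and smooth muscle actin Acta2 at -0.21 (-0.63 to 0.21), each a log2 difference with its 95% interval. These intervals include 0, and each of the 4 reaches a difference larger than 1.5-fold.

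A few matrix and signalling genes separated the groups without passing by edgeR. With DESeq2 Spp1, Tgfb1, Pdpn and Sparcl1 of these passed (adjusted p = 0.00174, 0.00762, 0.00949 and 0.0236). Over all genes 5.42% were higher and 4.43% lower without overlap. Higher were 3 of 32 crosslinking and turnover, 1 of 20 TGF-beta and 2 of 20 fibroblast and myofibroblast genes. Lower were 1 of 24 matrix glycoprotein and proteoglycan genes and 2 of 7 SPARC and SMOC family genes. With counts this small the genes are given singly, not as a result about the lists. Timp1, an inhibitor of matrix proteases, was at 247, 159.9, 119 and 117 CPM against 104, 117, 71 and 55.6 CPM (log2 0.89, edgeR adjusted p = 0.16), where SMOC2-labelled library 4 and wild-type library 2 are nearly equal. Loxl1, which crosslinks elastin, was at 259, 157, 170.3 and 128 CPM against 97, 76.9, 109 and 109 CPM (log2 0.87, edgeR adjusted p = 0.169). Tgfb1, the central profibrotic cytokine, was at 112, 104, 92 and 82.3 CPM against 78, 62.7, 66.9 and 60.7 CPM (log2 0.54, edgeR adjusted p = 0.0805), and Pdpn, podoplanin, differed by 0.76 (edgeR adjusted p = 0.0875). In the other direction, Spp1, which encodes osteopontin, was at 13073, 18530.3, 12296 and 15931 CPM against 21917, 28228, 22027 and 19882 CPM (log2 -0.62, edgeR adjusted p = 0.083). Sparcl1, a relative of SMOC2, was at 105, 116, 120.01 and 80.7 CPM against 161, 129, 202 and 199.5 CPM (log2 -0.71, edgeR adjusted p = 0.113). The 20 genes of TGF-beta signalling had no call and a median of 0.06, and the 20 fibroblast and myofibroblast genes had no call and a median of 0.09.

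The lists of loop of Henle, distal tubule and collecting duct genes lay below 0 by their medians, with no call. S100g, the distal nephron gene that fell, is in none of these lists. All 14 collecting duct principal cell genes were below 0, with a median of -0.45 and 4 not overlapping, against 4.43% of all genes. The epithelial sodium channel subunit genes Scnn1g and Scnn1b were at -0.47 and -0.43 (edgeR adjusted p = 0.0781 and 0.0915, DESeq2 adjusted p = 0.0188 and 0.0358). Aqp2, the vasopressin-regulated water channel, named after its values were seen, was at 17.6, 64.1, 50.8 and 20.3 CPM against 42.7, 42.5, 54.2 and 125 CPM (log2 -0.79, edgeR adjusted p = 0.432), and its groups overlapped. The list of 25 loop of Henle and distal tubule genes had 20 below 0 and a median of -0.24, and its potassium channel gene Kcnj1 was at 65.5, 94.7, 90.7 and 103 CPM against 117, 186, 122 and 193 CPM (log2 -0.80, edgeR adjusted p = 0.0519, DESeq2 adjusted p = 0.00169). The 15 intercalated cell genes had 14 below 0 and a median of -0.19. The median of loop and distal genes was -0.24 in untreated kidney too, while that of the principal cell genes was -0.17 and that of the intercalated cell genes lay on the other side of 0, at 0.07.

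Interferon-stimulated genes and cell-cycle genes lay on opposite sides of 0 without a call. Of 34 interferon-stimulated genes, 32 were below 0 with a median of -0.30, and 1 was lower without overlap (4.43% of all genes were). Their summed level was 1013 to 1127 CPM in SMOC2-labelled and 1015 to 1930.0 CPM in wild-type libraries, with wild-type library 4 the highest. Of 34 cell-cycle genes, 31 were above 0 with a median of 0.19 and 5 were higher without overlap (5.42% of all genes were), Plk1, a mitotic kinase, among them at 8.68, 10.9, 10.2 and 10.8 CPM against 7.22, 6.66, 7.67 and 5.9 CPM (log2 0.56, edgeR adjusted p = 0.0857, DESeq2 adjusted p = 0.00394). Btg2, an antiproliferative target of p53, fell, at 57.9, 62.1, 48.5 and 54.8 CPM against 70.7, 77.4, 83.4 and 89.7 CPM (log2 -0.52, 95% interval -0.71 to -0.34, edgeR adjusted p = 0.0183), as the 1 call among 16 p53 and senescence genes, and it held its call in all 8 refits but not with the 8 obstructed libraries alone (edgeR adjusted p = 0.0695). Over all 49 lists, 9 of 895 distinct members tested were called (1.01%), against 0.831% of all genes.

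**Figure D4:**
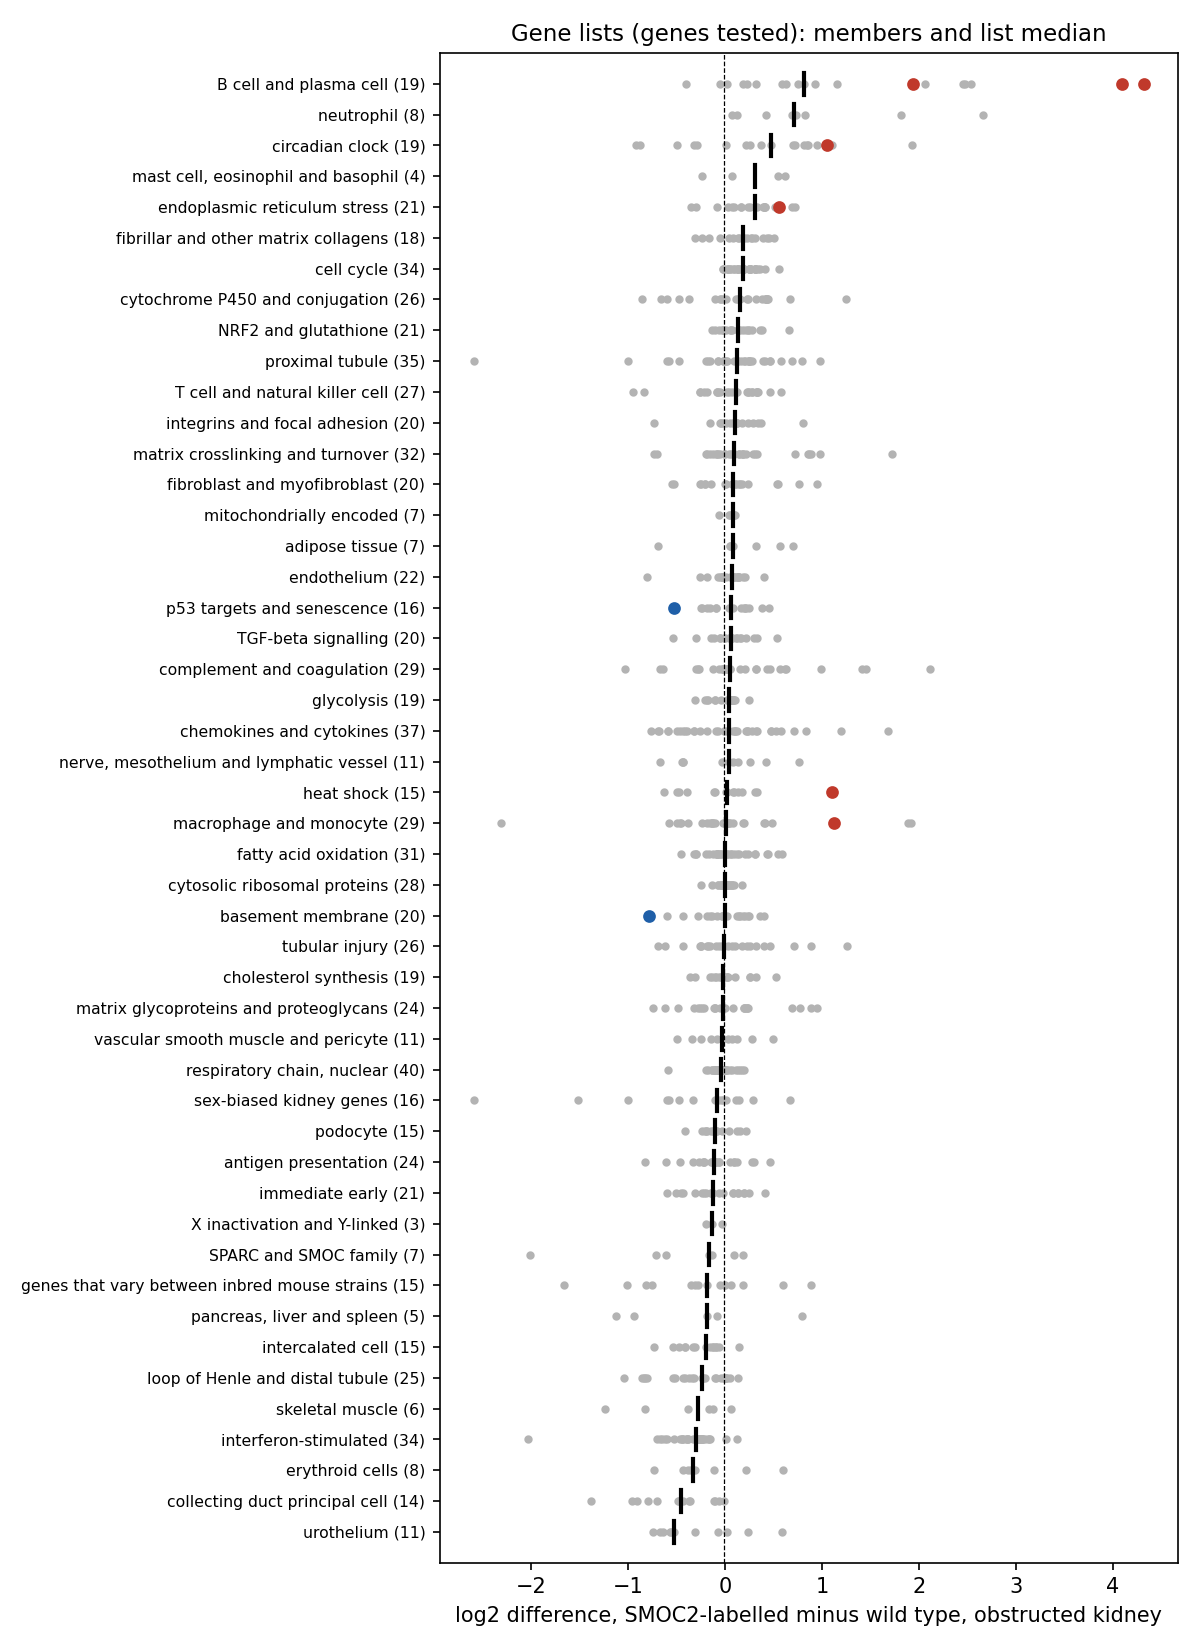
Each row is a gene list with at least 3 genes tested, the number tested in brackets, each point the log2 difference of 1 member in obstructed kidney and the bar the list median. Red and blue points are the 7 higher and 2 lower called members, and the dashed line is the median of all genes. The B cell and neutrophil lists sit at the top, and principal cell and urothelium lists at the bottom.

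The summed levels of markers of tissue that can be carried over with a kidney overlapped between the labels. The urothelium list summed to 59.1 to 187 CPM in SMOC2-labelled and 28.9 to 348 CPM in wild-type libraries. The skeletal muscle list summed to at most 7.18 CPM with Myh4 at 0 in all 8 libraries, and the adrenal list to at most 5.76 CPM with Cyp11b2, Th and Pnmt at 0. The pancreas, liver and spleen list summed to 12.96 to 17.9 CPM and 13.7 to 22.9 CPM, with Prss1 and Amy2a5 at 0. The adipose list summed to 256 to 357 CPM and 303 to 473 CPM, with 1 of 7 genes tested higher without overlap. The list of nerve, mesothelium and lymphatic vessel genes summed to 172 to 248 CPM and 142 to 258 CPM, with 2 of 11 genes tested, Pdpn one of them, higher without overlap. None of the members of these lists was called, and their part in the differences above was not tested.

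Some of the sharpest differences were in transcripts with provisional names, singled out after their values were seen. Gm11814, annotated as a processed pseudogene (chromosome 4 from 10438815 to 10439743), was at 0.0622, 0, 0.0353 and 0.122 CPM in SMOC2-labelled and 3.38, 2.59, 6.08 and 4.06 CPM in wild-type obstructed libraries (log2 -6.08, 95% interval -7.14 to -5.02, edgeR adjusted p = 8.49e-05). In untreated kidney the same split appeared, 0.125, 0 and 0.0521 CPM against 3.61, 4.25 and 4.48 CPM (log2 -6.06, edgeR adjusted p = 0.00114). Gm10039, also a processed pseudogene (chromosome 11 from 100361716 to 100362126), was at 17, 18, 19.7 and 12.2 CPM against 1.94, 2.83, 1.49 and 1.07 CPM (log2 3.17, 95% interval 2.61 to 3.74, edgeR adjusted p = 8.49e-05), and in untreated kidney at 79.8, 88 and 49.3 CPM against 4.54, 5.03 and 5.38 CPM (log2 3.86, edgeR adjusted p = 5.57e-05). Both pseudogenes therefore separated all 7 SMOC2-labelled from all 7 wild-type libraries, and their counts are uncertain because a parent gene elsewhere can share their reads.

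Gm13178 behaved otherwise. This protein-coding gene model (chromosome 4 from 144703191 to 144721404) had 1 count over the 4 SMOC2-labelled obstructed libraries and 298 counts over the 4 wild-type ones, a ratio of 301 with a 95% interval of 53.6 to 11920 that covers counting error only. It was at 2.15, 4.54, 2.72 and 1.11 CPM in wild-type obstructed kidney, at 1.94, 4.81 and 2.65 CPM in wild-type untreated kidney and at 3.63, 4.55 and 1.41 CPM in SMOC2-labelled untreated kidney. Among the 14 libraries, the 4 SMOC2-labelled obstructed ones were at or near 0 and the other 10 were not. The edgeR adjusted p was 0.00156 in obstructed kidney and 0.0871 for the change of the label difference with obstruction, the smallest of any gene. That change passed for Gm13178 with DESeq2 (adjusted p = 3.82e-06), and in edgeR with no filter (adjusted p = 0.00663) and without wild-type library 4 (adjusted p = 0.0315). Without SMOC2-labelled library 1, which held the 1 count, the call remained (edgeR adjusted p = 0.0123). It lies on chromosome 4, as do Zfp991 (from 147132038), Alpl (from 137741733), Vcp and Gm11814. In all, 13 of 1092 genes tested on that chromosome were called (1.19%), and the share per chromosome ran from 0.17% on chromosome 19 to 1.32% on chromosome 15.

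Around Smoc2 itself, 53 genes within 5 Mb were tested and 2 were called (against 0.831% of all genes), both higher and both named after their values were seen. Dact2 (chromosome 17 from 14195052 to 14204304), which modulates Wnt and TGF-beta receptors, was at 39.7, 40.5, 45.2 and 39.6 CPM against 28, 29.6, 28.9 and 22.9 CPM (log2 0.59, 95% interval 0.35 to 0.84, edgeR adjusted p = 0.033). Map3k4 (chromosome 17 from 12227621 to 12318796), a stress kinase, differed by 0.33 (edgeR adjusted p = 0.0377). Thbs2, a matrix glycoprotein gene in the same window, was at 133, 84.4, 129.8 and 132 CPM against 106, 48.3, 63.7 and 39.96 CPM, with overlap, and did not pass (log2 0.89, edgeR adjusted p = 0.0987). Of the 53, 9 did not overlap between labels (against 9.85% of all genes) and 23 were above 0. With DESeq2 Thbs2 passed (adjusted p = 0.014). Dact2 lost its call in 6 of 8 (highest adjusted p = 0.0856, without SMOC2-labelled library 3) refits and Map3k4 lost its call in 8 of 8 (highest adjusted p = 0.123, without SMOC2-labelled library 2).

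The untreated kidneys gave a further measure of the label difference, in 6 other libraries, though no label shows that they came from other animals. Of the 149 genes called in obstructed kidney, 128 had the same sign there (85.9%), against 60.8% of all genes tested, and 21 had the opposite sign. The trend with GC content given below ran in the same direction in both kidney states, and its part in this shared sign was not tested. The median difference in untreated kidney was 0.23 for the 100 higher genes, -0.12 for the 49 lower genes and -0.0037 for all genes. In untreated kidney 5 genes were called (0.0279%). Of these, 4 were also called in obstructed kidney, all in the same direction, which is 2.68% of the obstructed calls and 80% of the untreated calls. No gene passed the test of a label difference that changes with obstruction in the main edgeR fit, with 1154 at an unadjusted p under 0.05, while DESeq2 called 25. With edgeR, 1 gene passed with no filter on low counts, and 1 each without wild-type libraries 1, 2 and 4.

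The difference between labels moved with the GC content of the transcripts. From the quintile of genes with the lowest GC content to the quintile with the highest, the median log2 difference was -0.10, -0.05, -0.0013, 0.04 and 0.11, and 27.7% and 68.9% of genes were above 0 in the first and last. Across 17867 genes Spearman's correlation of GC content with the difference was 0.30, a description over genes that share the same 8 libraries. Of the 100 higher genes 54 were in the highest GC quintile, and of the 49 lower genes 17 in the lowest. The same quintiles ran from -0.14 to 0.12 in untreated kidney. With each library's GC trend removed, an alternative chosen after seeing the data, 65 genes were called, 39 higher and 26 lower, and 61 of them were among the 149. Of the 44 called genes named here, 28 kept their call, among them Fst, Timd2, Alpl, Ighg2b, S100g and Cry2, while Calr (edgeR adjusted p = 0.0556), Hspb1 (0.103) and Col4a3 (0.0612) were among the 16 that did not.

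**Figure D5:**
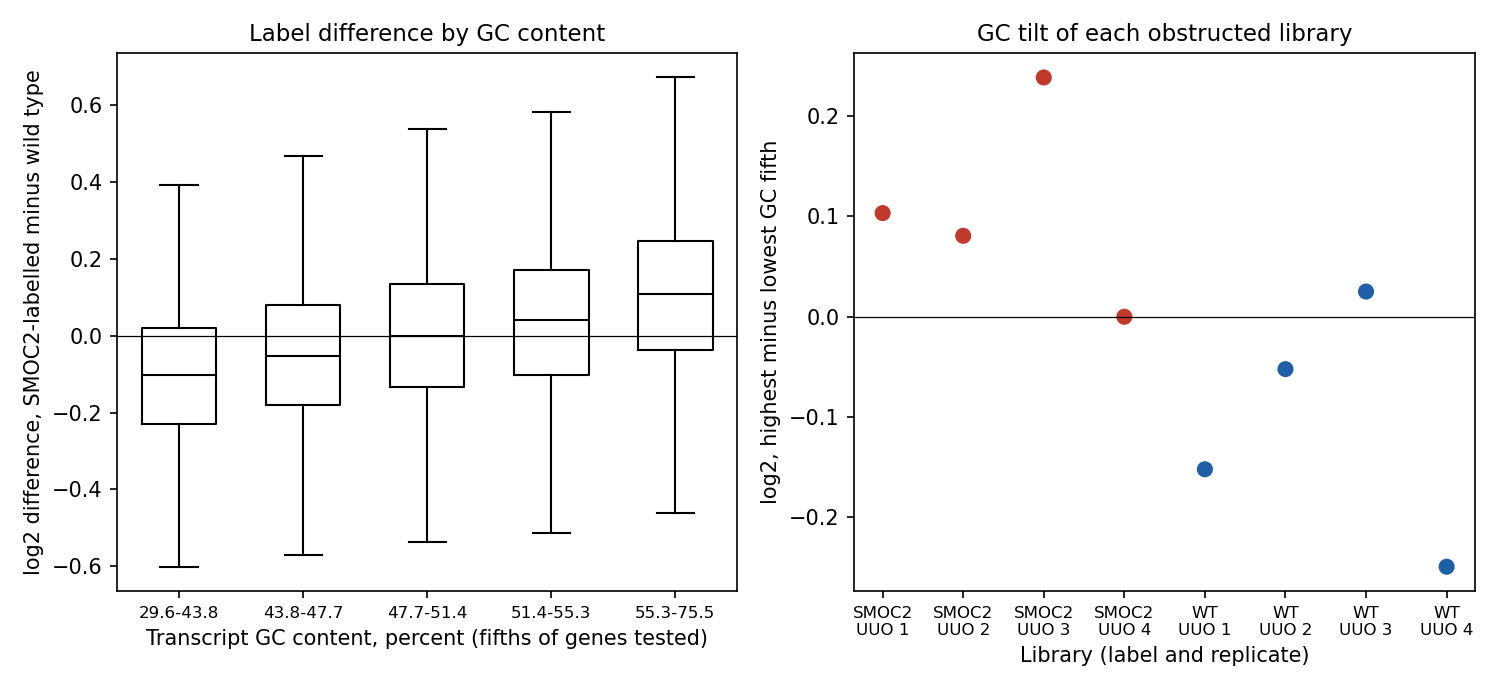
On the left, boxes give the median and quartiles of the log2 difference of SMOC2-labelled minus wild type in obstructed kidney for 5 equal groups of genes by transcript GC content in percent, with whiskers to 1.5 times the quartile range. On the right, each point is 1 obstructed library, its log2 level of the highest minus the lowest GC quintile relative to the mean of its kidney state. Medians climb from -0.10 to 0.11, and 3 SMOC2-labelled libraries lie above all 4 wild-type libraries while SMOC2-labelled library 4 lies at about 0.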

How the data were processed

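Polyadenylated RNA from whole mouse kidney was sequenced in 14 libraries from frozen tissue with a stranded kit, per the labels' protocols. Each deposited file lists the raw read counts of 1 library, whole numbers by gene that the authors did not normalize. STAR 2.4.1d, featureCounts 1.4.4 and build mm10 are named in the submitters' processing notes. The sources used here state neither annotation nor strand setting. Of 47729 gene identifiers, 47310 matched GENCODE M21 (GRCm38), the source of symbols and coordinates, and 419 with 0.0288% of counts did not.

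In R 4.3.3, edgeR 4.0.16 kept 17926 genes by filterByExpr on the 4 groups, applied trimmed mean of M-values scaling and fitted 4 group means to all 14 libraries. SMOC2_UUO was tested against WT_UUO with the quasi-likelihood test, with Benjamini-Hochberg adjustment over all genes tested and a threshold of 0.05. CPM values were computed from the deposited counts and the scaled library sizes. The fit assumes 1 spread per gene in untreated and obstructed kidney. Alternatives used DESeq2 1.42.0, limma-voom (limma 3.58.1), other scalings, filters, blocks and sets of libraries. The fit was also run on simulated counts with known changes, and the outcome is not reported here. Between pairs of obstructed libraries of a group, chi-square per gene was 17.0 to 79.9, far above sampling noise. Each library was counted as 1 sample, though these values do not show that the libraries came from different animals. Transcript GC content came from the longest GENCODE M21 transcript of each gene.

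The naming rule covers Smoc2, the 15 largest rises and falls among called genes (established symbols, libraries without overlap, at least 1 CPM on average where higher), and the 3 members of each of 49 lists with the smallest p. Of these 164 genes, 58 are given with their own values. The other 106, all list members that were not called, enter the counts or sums alone, and S100a8 and Xist among them are named there. Others with results of their own are marked as chosen after their values were seen. Genes at 0 or too low to test are named as list members. The comparison and the lists were chosen with earlier results of these data known.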

Additional observations from a re-analysis of the deposited data

Results flagged for a closer look

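In 16 of 172 groups of 4 obstructed libraries (86 named genes, both labels), the highest or lowest library stood apart from the other 3 by more than the 95% limit of Dixon's test, where chance alone gives about 8.6. In the SMOC2-labelled group these were Smoc2 in library 1 at 123.6 CPM (the others 83.89 to 89.9), Disp2 in library 1 at 1.899 CPM, Zfp758 in library 1 at 8.901 CPM and Gm13178 in library 1 at 0.03112 CPM, which is 1 count where the others had 0. SMOC2-labelled library 2 was highest for Ighg1 at 35.7 CPM (the others 3.044 to 8.449) and Mmp8 at 6.022 CPM (the others 1.136 to 1.732), and lowest for Thbs2 at 84.43 CPM. SMOC2-labelled library 3 was lowest for Hsp90b1 at 562.7 CPM and highest for Dact2 at 45.18 CPM, and library 4 was highest for H2-T23, a nonclassical class I antigen gene, at 38.64 CPM. In the wild-type group, library 1 was highest for Mmp8 at 0.8619 CPM and lowest for Nr1d1 at 15.77 CPM, and library 3 was highest for Igkv1-117 at 0.2122 CPM. Wild-type library 4 was highest for Ifi202b, an interferon-inducible gene that varies between inbred strains, at 78.94 CPM (the others 27.72 to 33.86), for the immediate early gene Nr4a1 at 13.42 CPM and for Aqp2 at 125.3 CPM (the others 42.51 to 54.25).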

How the results depend on the processing

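The direction of Smoc2 and its failure to pass held under all 18 alternatives (-0.7557 to -0.5507 with 1 library left out). No named gene reversed. The number of changed genes (149, with 100 higher and 49 lower) stayed within 1.5 times under upper-quartile or median-ratio scaling, with no filter, and with genes limited to those with 50 counts or more in 3 libraries. The DESeq2 test called 750 genes (482 higher, 268 lower), limma-voom 232 (147 higher, 85 lower), and the 8 obstructed libraries alone gave 39 (29 higher, 10 lower). With each library's GC trend removed, chosen after seeing the data, 65 were called (39 higher, 26 lower). Leaving out 1 library gave 29 to 158 changed, 18 to 116 higher and 11 to 42 lower genes, and 17 of the 44 called genes named held their call in all 8 refits. Of these 44, 25 lost their call with the 8 obstructed libraries alone, 20 with the replicate block over 14 libraries and 36 with the block over the 8 obstructed ones, while Timp1 passed with the block over 14 (adjusted p = 0.0452). Deviations of same-numbered libraries correlated weakly, at 0.024, -0.0703, 0.129 and 0.075. SMOC2-labelled libraries 1, 3 and 4 still correlated best with the wild-type library of their own number, and library 2 with wild-type library 1. Whether the replicate numbers of the titles pair the libraries is therefore not settled. With the replicate number as a block, 69 genes were called over 14 libraries (45 higher, 24 lower) and 11 over the 8 obstructed ones (9 higher, 2 lower). Of the named genes, the label difference changed with obstruction for 0 in the main test, 1 with no filter, 5 with DESeq2, 1 with the block, and 0 to 1 with a library left out. The cause of these moves was not tested. With 4 libraries a group, differences under 1.5-fold were called only where the spread was small.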
